A study of Rattus norvegicus with 6 samples.

Results

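The 10 genes described here encode proteins of the Z-disc, the plate that anchors the thin filaments of neighbouring sarcomeres, and of the mechanosensing complexes attached to it. They are Actn2, Ldb3, Pdlim5, Csrp3, Myoz2, Nexn, Synpo2l, Xirp1, Xirp2 and Ankrd23, chosen by gene symbol from a table of 23096 protein-coding genes, and all 10 were found and passed the filter on low values that left 13110 genes for testing. Poly(A) RNA was sequenced from primary ventricular cardiomyocytes of Wistar rats at E18.5, before birth, grown on laminin in medium with serum after pre-plating to reduce fibroblasts. For 48 h they were exposed to all-trans retinoic acid (ATRA) at 10 µM, a ligand of nuclear receptors, or to DMSO alone (vehicle), and 3 libraries were made from each. No genetic change was made, the cells are a mixed primary culture, and no label names separate isolations, so that the tests measure only the spread between these libraries.

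At the Z-disc, alpha-actinin cross-links actin filaments of opposite polarity and binds titin, and a layer of PDZ, LIM and ankyrin repeat proteins is bound to this lattice. Several of these proteins also enter the nucleus or hold signalling enzymes such as calcineurin, and they are therefore studied as sensors of stretch. In the heart, mutations in many of the genes are known causes of dilated or hypertrophic cardiomyopathy.

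The response to ATRA went both ways within the set, as it did among all tested genes. The scaffold genes Ldb3 and Pdlim5 and the Xin-repeat gene Xirp1 rose by 1.18-fold to 1.36-fold, and the LIM protein gene Csrp3, the alpha-actinin binding gene Synpo2l and the second Xin-repeat gene Xirp2 fell, Xirp2 by the most at 4.38-fold. Actn2, Myoz2, Nexn and Ankrd23 did not pass the test. By limma, with p-values adjusted over the whole table (Benjamini-Hochberg) and a threshold of 0.05, 3 of 10 were higher and 3 lower, where 20.3% of all tested genes were higher, 18.9% were lower and 39.3% changed in either direction. Without ATRA replicate 2 or 3 the count of higher genes among the 10 was 0, and that of lower genes was 2. The median log2 fold change of the 10 genes was 0.23, against 0.00 for all tested genes. In 8 of the 10 the ATRA and vehicle libraries did not overlap in normalised counts, 5 higher and 3 lower, and this held for 53.8% of all tested genes (27.6% higher and 26.2% lower). The authors' deposited table, from DESeq2, calls 4 of the 10 higher and 3 lower, namely the 6 called here and Actn2, against 17.2% and 16.8% of the genes with an adjusted p in it, or 34% in either direction.

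The regions upstream of 3 of these genes are shown, those of Ldb3 (the largest called rise), of Xirp1 (the member whose profile was closest to Ldb3) and of Xirp2 (the largest fall). Each runs from 250 bases before to 50 bases after the gene start in RefSeq, build GRCr8, 5′ to 3′ on the gene's strand. The Ldb3 region is chr16:9924630-9924929 on the minus strand, that of Xirp1 is chr8:128634962-128635261 on the minus strand and that of Xirp2 is chr3:72533936-72534235 on the plus strand. Capitals mark the match to the CArG box of serum response factor in Ldb3 and to the MEF2 site in Xirp1 and Xirp2.
Ldb3: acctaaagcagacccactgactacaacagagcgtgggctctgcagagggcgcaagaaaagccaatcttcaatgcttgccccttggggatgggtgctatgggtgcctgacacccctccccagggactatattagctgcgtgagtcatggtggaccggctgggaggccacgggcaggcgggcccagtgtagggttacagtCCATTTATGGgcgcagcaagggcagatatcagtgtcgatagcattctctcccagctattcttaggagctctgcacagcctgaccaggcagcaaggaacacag
Xirp1: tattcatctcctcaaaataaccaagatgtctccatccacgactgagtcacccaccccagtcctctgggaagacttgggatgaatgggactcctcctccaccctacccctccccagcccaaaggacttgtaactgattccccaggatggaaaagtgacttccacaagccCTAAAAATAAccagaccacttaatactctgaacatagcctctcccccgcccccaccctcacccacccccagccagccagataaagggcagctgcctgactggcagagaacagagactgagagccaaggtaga
Xirp2: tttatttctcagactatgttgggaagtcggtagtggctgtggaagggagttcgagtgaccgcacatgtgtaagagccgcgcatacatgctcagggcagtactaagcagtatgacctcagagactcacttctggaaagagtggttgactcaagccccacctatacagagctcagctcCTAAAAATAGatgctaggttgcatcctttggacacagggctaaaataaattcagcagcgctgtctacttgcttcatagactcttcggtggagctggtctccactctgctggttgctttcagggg

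The table of upstream regions held 9 of the 10 genes, all except Csrp3. On both strands, a MEF2 site was found in 4 of the 9, Myoz2 (CTATATATAG, beginning 53 bases before the start), Xirp1 (CTAAAAATAA, 82 bases before), Xirp2 (CTAAAAATAG, 74 bases before) and Synpo2l (TTATTTTTAG, 242 bases before), against 3.29% of all 33469 regions of this length. The CArG box was found in 1 of the 9, Ldb3 (CCATTTATGG, 52 bases before the start), against 1.64% of all regions. The core of the TEAD-binding M-CAT element, CATTCC, was found in 2 (Nexn and Ankrd23), against 14.2% of all regions. The nuclear receptor half-site AGGTCA was found in 2 (Actn2 and Xirp2), against 16.2%, and TATAAA in 0, against 14.2%. The E-box CANNTG was found in 8, against 72.1%, and its only overlap with another match was between 2 E-boxes of Xirp2. The MEF2 match was thus present both in a gene that rose (Xirp1) and in genes that fell (Xirp2 and Synpo2l). A match describes letters in a window and is no evidence of binding.

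The libraries held 25434878 to 32052035 gene-assigned reads, and the 10 genes took 0.7% to 0.89% of them. Of 13 cardiomyocyte markers in the table, 0 were under 10 normalised counts in all libraries, so that the labelled cell type had its markers, and their summed level was 1046777 to 1406473 normalised counts in vehicle and 1734722 to 1787605 after ATRA. Of these markers 6 were higher and 1 lower, with a median log2 fold change of 0.34. Of 15 tested fibroblast markers 4 were higher and 5 lower, and the summed level of all 17 was 140313 to 301622 normalised counts in vehicle, highest in vehicle replicate 1 and lowest in vehicle replicate 3, and 136862 to 144068 after ATRA. Col1a1 and Col1a2 made up most of that sum, and single fibroblast markers went both ways, with log2 fold changes of -3.52 ± 0.29 for Postn and 1.53 ± 0.40 for Dcn. Of 11 tested smooth muscle and pericyte markers 7 were higher and 3 lower, of 10 endothelial markers 1 was higher and 4 lower, and of 9 epicardial markers 1 was higher and 5 lower. Immune markers summed to 245 to 432 normalised counts, 7 of 12 of them under 10 in all libraries, and of 11 skeletal muscle markers 8 were under 10 in all libraries. Fewer cells of a type and less RNA per cell cannot be told apart in such bulk samples.

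The vehicle libraries differed more among themselves than the ATRA libraries did. All 10 genes had their lowest vehicle value in vehicle replicate 1, as did 37.9% of all tested genes, and 8 of the 10 had their highest in vehicle replicate 3. The cardiomyocyte markers lay at a median of -0.25 in vehicle replicate 1 and 0.18 in vehicle replicate 3, as log2 levels relative to the vehicle mean, and the fibroblast markers at 0.51 and -0.76. For those 8 genes the vehicle libraries stood in the order of the cardiomyocyte medians and in the reverse order of the fibroblast medians, while Xirp2 and Nexn were highest in vehicle replicate 2. The part of these markers in the results was not tested. The coefficient of variation was larger in vehicle than after ATRA for all 10 genes and for 75.9% of all tested genes. For Actn2 it was 12.7% in vehicle and 0.681% after ATRA.

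**Figure D1:**
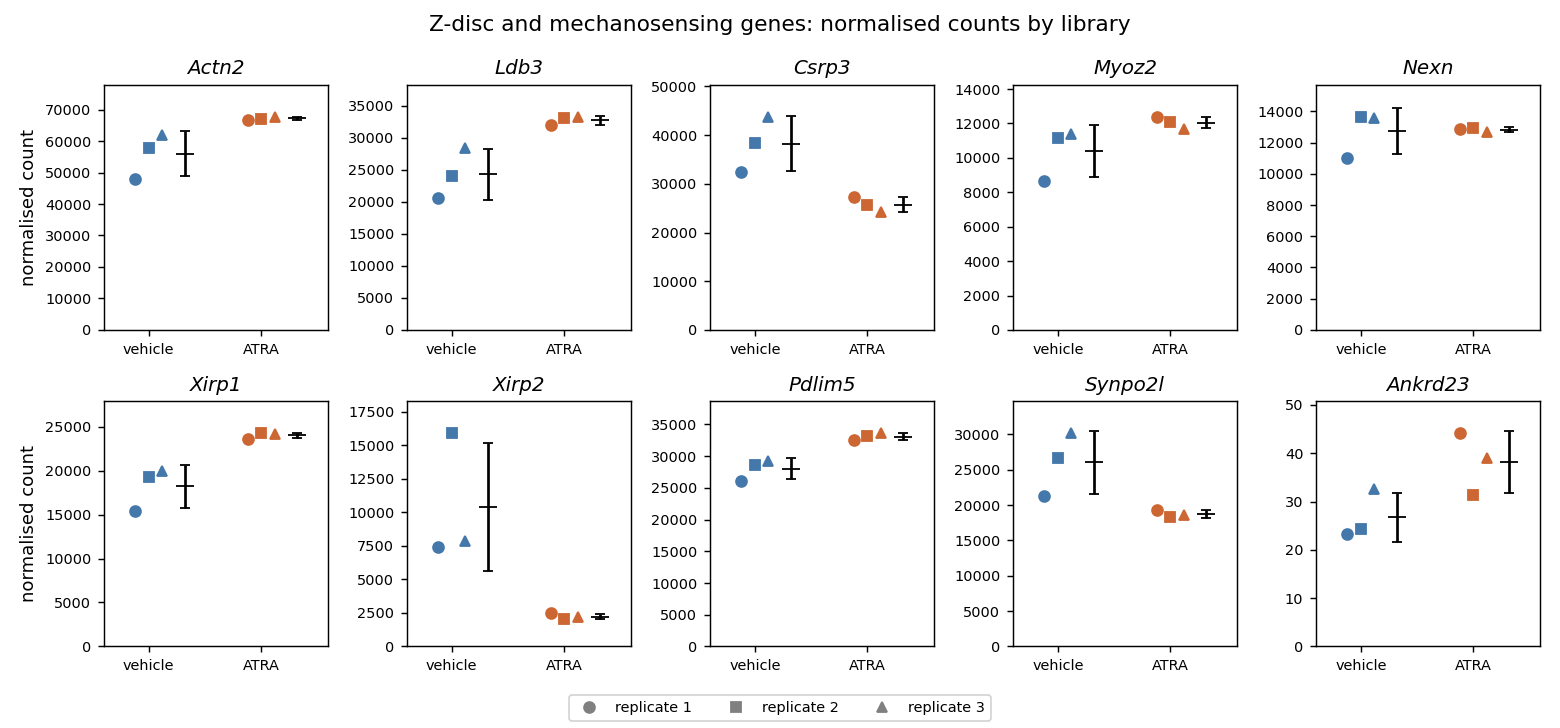
Normalised counts (vertical axes from 0) of each gene in the 3 vehicle and 3 ATRA libraries. Symbols mark the replicate and the bars the mean ± SD, n = 3. Vehicle replicate 1 is the lowest vehicle library in every panel, and the ATRA libraries of Csrp3, Synpo2l and Xirp2 lie below all vehicle libraries.

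Actn2 (ENSRNOG00000017833) encodes sarcomeric alpha-actinin, the cross-linker on which the other Z-disc proteins assemble. It was read at 48098, 57832 and 61902 normalised counts in vehicle replicates 1 to 3 and at 66791, 67033 and 67676 after ATRA. All 3 ATRA libraries were above all vehicle libraries, and the nearest vehicle library was replicate 3. The log2 fold change was 0.27 ± 0.10 (SE, n = 3 per group), with a 95% interval of 0.04 to 0.50, and it did not pass the limma test (adjusted p = 0.063). It passed without vehicle replicate 1 (0.17, adjusted p = 0.04) or vehicle replicate 3 (0.35, adjusted p = 0.0058), with array weights (adjusted p = 0.0097) and with DESeq2 (adjusted p = 0.024), and the authors' deposited table gives an adjusted p of 0.027 by DESeq2.

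Ldb3 (ENSRNOG00000059166), also called ZASP or Cypher, encodes a PDZ and LIM domain protein that binds alpha-actinin and stabilises the Z-disc under contraction. Its normalised counts were 20528, 23971 and 28400 in vehicle and 31949, 33043 and 33255 after ATRA, with no overlap. It rose 1.36-fold from 24300 ± 3946 to 32749 ± 701 (SD, n = 3; log2 fold change 0.44 ± 0.11, adjusted p = 0.015 by limma). Relative to Actn2, as a ratio of FPKM (reads scaled by gene length), Ldb3 stood at 0.252 to 0.278 in vehicle and at 0.29 to 0.299 after ATRA, a 1.13-fold higher ratio. Leaving out ATRA replicate 1, 2 or 3 ended the call (adjusted p = 0.05002, 0.058 and 0.061), while the log2 value stayed between 0.33 and 0.56 with each library left out in turn.

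Pdlim5 (ENSRNOG00000016419), also called ENH, is a related PDZ and LIM domain scaffold that binds alpha-actinin and protein kinase C. It was read at 26148, 28593 and 29259 normalised counts in vehicle and at 32467, 33130 and 33580 after ATRA. The groups did not overlap, and Pdlim5 had the smallest vehicle spread of the 10 genes, with a coefficient of variation of 5.85%. It rose 1.18-fold (log2 fold change 0.24 ± 0.06, adjusted p = 0.019 by limma). Leaving out ATRA replicate 1, 2 or 3 ended this call (adjusted p = 0.068, 0.083 and 0.092), as did the replicate number as a block (adjusted p = 0.0506) and scaling to total reads (0.13, adjusted p = 0.12), which put the median of all tested genes at -0.10. The log2 value was -0.16 with libraries scaled to cardiomyocyte markers.

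Csrp3 (ENSRNOG00000014327) encodes muscle LIM protein, which binds alpha-actinin and telethonin and shuttles to the nucleus, and whose loss causes dilated cardiomyopathy in mice. It had 32525, 38413 and 43741 normalised counts in vehicle and 27276, 25698 and 24191 after ATRA. Every ATRA library was below every vehicle library, although vehicle replicate 1, the lowest for all 10 genes, came near. Csrp3 fell 1.48-fold (means 38226 ± 5610 and 25722 ± 1543, SD, n = 3, log2 fold change -0.56 ± 0.11, adjusted p = 0.0052 by limma), and the call held in all 18 alternatives. Per length it remained the most abundant of the 10 genes, at 1363 ± 200 FPKM in vehicle and 917 ± 55 after ATRA.

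The ratio of Csrp3 to Actn2 varied far less among vehicle libraries than either gene did. It was 2.49, 2.44 and 2.6 in vehicle replicates 1 to 3 and 1.5, 1.41 and 1.31 after ATRA, as FPKM of Csrp3 over FPKM of Actn2. The ratio was 1.78-fold lower after ATRA, with a two-sided exact permutation p of 0.1 over the 6 libraries, the smallest that 3 against 3 allows, and 0.1 after adjustment over the 6 pairs of genes compared in this way. These pairs were chosen after the values were seen, so that such a p cannot serve as a test of them.

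Myoz2 (ENSRNOG00000014815) encodes calsarcin-1, which tethers the phosphatase calcineurin to alpha-actinin. It was read at 8638, 11132 and 11405 normalised counts in vehicle and at 12383, 12082 and 11697 after ATRA. The ATRA libraries lay above the vehicle libraries by a narrow margin, and Myoz2 did not pass the limma test (log2 fold change 0.22 ± 0.10, 95% interval -0.01 to 0.46, adjusted p = 0.12). It did so without vehicle replicate 3 (0.30, adjusted p = 0.026). Among the 45 pairs of the 10 genes, Myoz2 and Actn2 had the most alike profiles, with a root mean square difference of 0.053 on the log2 scale over the 6 libraries, each gene centred on its vehicle mean.

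Nexn (ENSRNOG00000012512) encodes nexilin, an actin-binding protein that is needed for Z-disc stability. It had 11026, 13650 and 13563 normalised counts in vehicle and 12891, 12941 and 12675 after ATRA. The ATRA libraries lay inside the vehicle range. The log2 fold change was 0.02 ± 0.09, with a 95% interval of -0.18 to 0.21 (adjusted p = 0.89 by limma), which allows changes of up to that size in either direction.

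Synpo2l (ENSRNOG00000008949), also called CHAP, encodes a heart-enriched PDZ protein that binds alpha-actinin. Its normalised counts were 21340, 26631 and 30133 in vehicle and 19297, 18268 and 18564 after ATRA, without overlap. It fell 1.38-fold from 26035 ± 4427 to 18710 ± 530 (SD, n = 3; log2 fold change -0.46 ± 0.12, adjusted p = 0.015 by limma). The call was lost without vehicle replicate 2 (adjusted p = 0.054) and without ATRA replicate 2 or 3 (0.063 and 0.06). Its profile was the closest of the 10 genes to that of Csrp3, with a root mean square difference of 0.084. The ratio of Synpo2l to Actn2 was 0.328, 0.341 and 0.36 in vehicle and 0.214, 0.202 and 0.203 after ATRA, as FPKM over FPKM. It was 1.66-fold lower (two-sided exact permutation p = 0.1, the smallest possible), and Actn2 itself was higher in every ATRA library. This pair was chosen after the values were seen, so that the p cannot serve as a test.

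Xirp1 and Xirp2 encode the Xin proteins, large actin-binding repeat proteins of the intercalated disc, and they went in opposite directions. Xirp1 (ENSRNOG00000037085) had 15388, 19288 and 19895 normalised counts in vehicle and 23639, 24223 and 24140 after ATRA. All ATRA libraries were higher, and Xirp1 rose 1.33-fold from 18190 ± 2446 to 24001 ± 316 (SD, n = 3; log2 fold change 0.41 ± 0.10, adjusted p = 0.012 by limma). Leaving out ATRA replicate 2 or 3 narrowly ended the call (adjusted p = 0.0511 and 0.0515). Xirp1 and Ldb3 had the second closest pair of profiles, with a root mean square difference of 0.063.

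Xirp2 (ENSRNOG00000034258), also called myomaxin and known in the mouse as a target of the factor MEF2A, showed the largest change of the 10 genes. It was read at 7385, 15885 and 7882 normalised counts in vehicle and at 2458, 2025 and 2202 after ATRA. Vehicle replicate 2 stood at about the sum of the other vehicle libraries, and the highest ATRA library was still far below the lowest vehicle library. Xirp2 fell 4.38-fold from 10384 ± 4770 to 2228 ± 218 (SD, n = 3; log2 fold change -2.13 ± 0.26, 95% interval -2.73 to -1.53, adjusted p = 0.00065 by limma). Without vehicle replicate 2 the log2 fold change was -1.78 (adjusted p = 6.1e-05), and the call held in all 18 alternatives. It rests on 33177 reads in vehicle and 6543 after ATRA.

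Within each library, Xirp2 stood at 0.273, 0.468 and 0.225 of the FPKM of Xirp1 in vehicle replicates 1 to 3. After ATRA the ratio was 0.0591, 0.0475 and 0.0518. The ratio of this gene pair was 5.82-fold lower, in 3 of 3 ATRA libraries below all vehicle libraries. The two-sided exact permutation p was 0.1, the smallest possible, and 0.1 adjusted over the 6 pairs. As the pair was chosen after the values were seen, this p cannot serve as a test.

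Ankrd23 (ENSRNOG00000016151), also called DARP, belongs with Ankrd1 and Ankrd2 to the muscle ankyrin repeat proteins, which bind titin and can enter the nucleus. It was nearly silent, at 23.2, 24.3 and 32.6 normalised counts in vehicle and 44.1, 31.3 and 39 after ATRA. The groups overlapped, with ATRA replicate 2 below vehicle replicate 3. The log2 fold change was 0.50 ± 0.24 (95% interval -0.05 to 1.05, adjusted p = 0.13 by limma) and no alternative called it. It rests on 82 reads in vehicle and 112 after ATRA, a depth-scaled ratio of 1.45 with an exact 95% interval of 1.08 to 1.95 that covers counting error only.

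**Figure D2:**
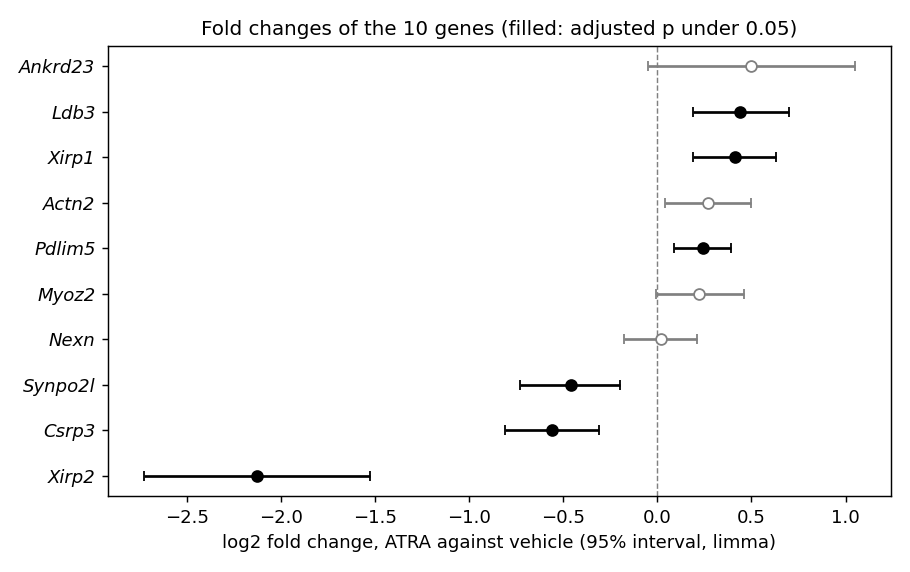
Log2 fold changes of the 10 genes, ATRA against vehicle (horizontal axis), with 95% intervals from limma. Filled points passed an adjusted p under 0.05. Xirp2 stands at -2.13, while the other called genes lie between -0.56 and 0.44.

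The levels per length spanned a wide range, from Csrp3 at 1363 FPKM down to Ankrd23 at 0.305 FPKM in vehicle. Actn2 followed Csrp3 at 543 ± 68.8 FPKM in vehicle (SD, n = 3), then Myoz2 at 278 ± 40.8. These levels and that of Csrp3 were apart in every vehicle library. Synpo2l (187 ± 31.8), Pdlim5 (147 ± 8.61), Ldb3 (143 ± 23.2) and Nexn (139 ± 16.3) came next, and each overlapped its neighbour in this order. Xirp1 (86.8 ± 11.7) and Xirp2 (28.2 ± 12.9) were lower. Synpo2l was the gene whose place changed most, from above Pdlim5, Ldb3 and Nexn in vehicle to below them after ATRA, at 134 ± 3.81 and 140 ± 1.54 FPKM, values that overlapped. Ldb3 and Pdlim5 overlapped in vehicle and were apart after ATRA, at 193 ± 4.13 and 174 ± 2.94 FPKM. Actn2 supplied 24.6% to 25.2% of the reads of the 10 genes in vehicle and 29.1% to 29.7% after ATRA.

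**Figure D3:**
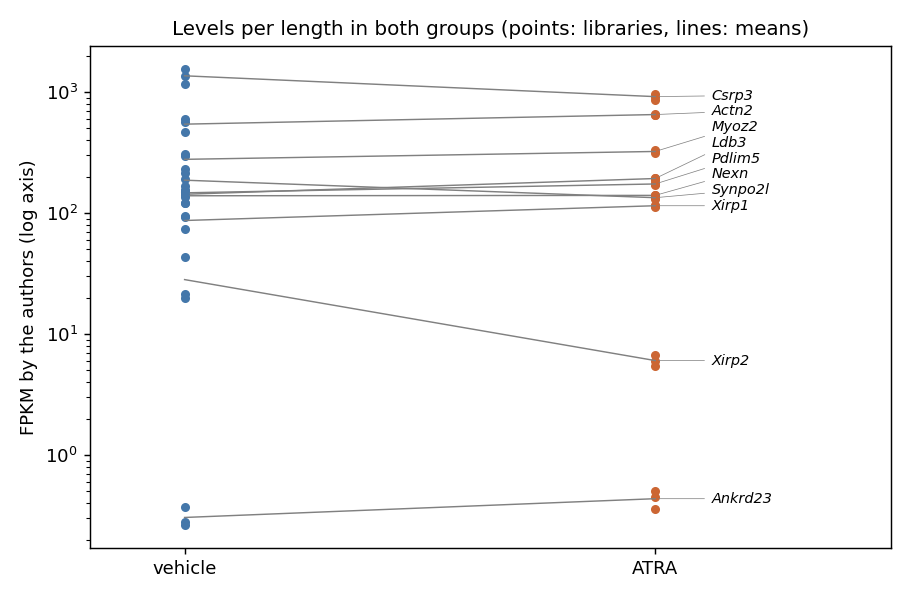
FPKM by the authors (log axis) of the 10 genes in both groups. Points are libraries and lines join the group means. Csrp3 falls from 1363 to 917 FPKM toward Actn2, which goes from 543 to 652, and Xirp2 falls from 28.2 to 6.04.

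The rises of Ldb3, Xirp1 and Pdlim5 were of about the size of the change in the cardiomyocyte markers. With each library scaled by the geometric mean of these 13 markers, an alternative added after the data were seen, the median of all tested genes lay at -0.39. On this scale none of the 3 was called (Ldb3 0.04, adjusted p = 0.76, Xirp1 0.01, adjusted p = 0.94, and Pdlim5 -0.16, adjusted p = 0.31, by limma). The falls remained called, at -2.53 for Xirp2, -0.96 for Csrp3 and -0.86 for Synpo2l, and Nexn was called lower (-0.38, adjusted p = 0.024). Of these 13 markers 6 were called higher and 1 lower. Myh6 (1.49 ± 0.16) and Myl2 (1.07 ± 0.14), both contractile genes, rose the most, and Myh7 (-0.63 ± 0.16), also contractile, was the lower one. The markers thus did not move together, and this scale itself moves with ATRA.

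**Figure D4:**
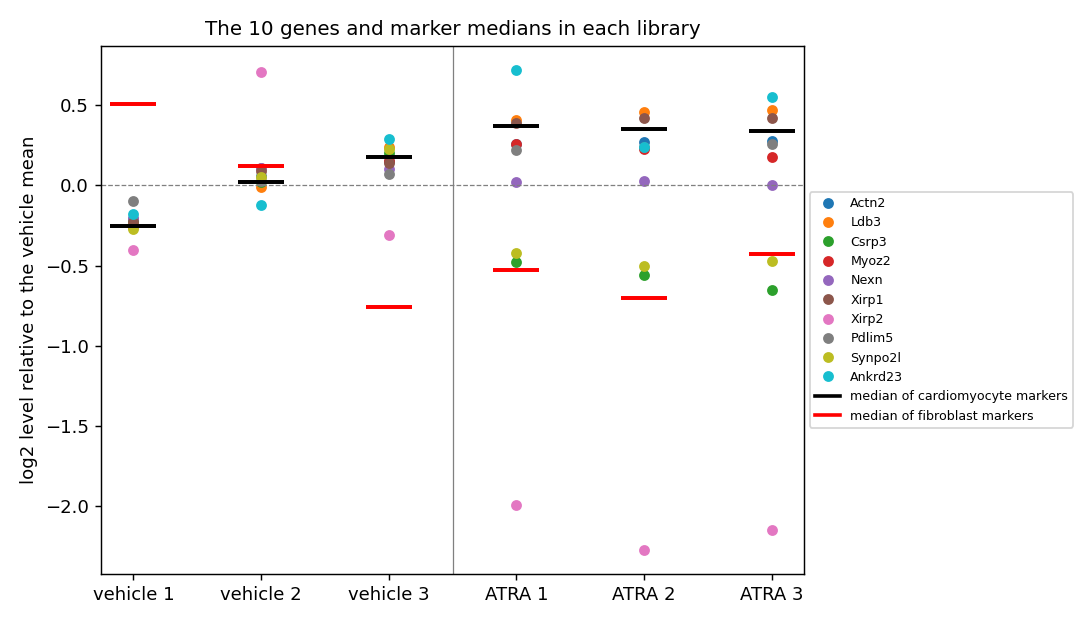
Log2 levels of the 10 genes in each library relative to the vehicle mean (points), with the medians of the cardiomyocyte (black bars) and fibroblast markers (red bars). In vehicle replicate 1 all 10 genes lie below 0 and the fibroblast median lies at 0.51. In the ATRA libraries Csrp3, Synpo2l and Xirp2 lie below 0, Nexn lies near 0 and the other 6 genes lie above it.

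Genes with profiles like those of the largest rise and fall were sought among all 13110 tested genes by the same root mean square difference over the 6 libraries. Among the closest to Ldb3 were Slc25a28 (0.024), a mitochondrial iron carrier, and Colq (0.025), the collagen tail of acetylcholinesterase. Their log2 fold changes were 0.44 to 0.45. The closest to Xirp2 were Hopx (0.189), a cardiac homeodomain-only cofactor, Otud1 (0.233), a deubiquitinase, and Ier2 (0.235), an immediate early gene. Vehicle libraries held 1801 ± 432 and ATRA libraries 406 ± 16.8 normalised counts of Hopx (SD, n = 3), a log2 fold change of -2.12 ± 0.15 (adjusted p = 5.4e-05 by limma).

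The paralogs of the 10 genes held both rises and falls. Of 16 listed, 15 were in the table and 13 were tested, of which 3 rose, 4 fell and 6 missed the threshold (median log2 fold change -0.16). The shares were 23.1% higher and 30.8% lower, against 20.3% and 18.9% of all tested genes. Without ATRA replicate 1, 2 or 3 none was higher and 2 were lower, by limma. In the alpha-actinin family the non-muscle forms Actn1 (-0.23 ± 0.07, adjusted p = 0.027) and Actn4 (0.17 ± 0.07, adjusted p = 0.085) had small log2 fold changes, Actn1 alone being called by limma, and the fast skeletal form Actn3 was at 7.61 normalised counts or less. How reads that map to several genes were treated is not given in the sources used here, so that separate values within such families carry that uncertainty.

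Among the PDZ and LIM domain genes, Pdlim3 (ALP), an alpha-actinin binding protein, fell from 9616, 12727 and 11171 to 7459, 6564 and 6652 normalised counts (log2 fold change -0.69 ± 0.10, adjusted p = 0.0016 by limma). Pdlim7 (0.50 ± 0.15) and the weakly expressed Pdlim2 (0.71 ± 0.20) rose. Pdlim1 (0.00 ± 0.09) and Pdlim4 (-0.73 ± 0.40) were not called. Of the calsarcins, Myoz3 rose (0.38 ± 0.11, adjusted p = 0.03) and Myoz1 fell, from 18.3 ± 3.5 to 4.81 ± 1.74 normalised counts (SD, n = 3), or -1.76 ± 0.37 on the log2 scale. The cysteine-rich LIM gene Csrp2 fell (-0.51 ± 0.14, adjusted p = 0.023) with its relative Csrp3, while Csrp1 (-0.16 ± 0.09) and Synpo2 (0.09 ± 0.09) were not called.

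Ankrd1 (CARP), the abundant stretch-responsive ankyrin repeat protein of the heart and a relative of Ankrd23, was not called. It had 125075, 154696 and 158407 normalised counts in vehicle and 133488, 130373 and 127287 after ATRA, inside the vehicle range (-0.16 ± 0.11, adjusted p = 0.31 by limma). Ankrd2 was at 11.6 normalised counts or less in every library and was not tested.

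In the list of other Z-disc genes 6 of 24 tested genes rose, 8 fell and 10 missed the threshold (median log2 fold change -0.08). That is 25% higher and 33.3% lower, where all tested genes had 20.3% and 18.9%. Nebl, or nebulette, which links alpha-actinin to actin, rose from 4223, 5418 and 5294 to 12184, 12856 and 13076 normalised counts (1.36 ± 0.09, adjusted p = 4.5e-05 by limma). The LIM-only gene Fhl2 (0.43 ± 0.07) and the muscle ubiquitin ligase gene Trim63, or MuRF1 (0.58 ± 0.11), rose as well. The small heat shock protein gene Cryab fell from 56096 ± 3817 to 27769 ± 276 (SD, n = 3; -1.01 ± 0.07), Lmcd1, a LIM protein of the calcineurin pathway, by 1.40 on the log2 scale, and the chaperone regulator Bag3 slightly (-0.24 ± 0.04). Tcap, or telethonin, the partner of muscle LIM protein, was also lower (-0.69 ± 0.14, adjusted p = 0.0061), as was Fhl1 (-0.54 ± 0.12), both chosen after their values were seen.

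The costamere, which couples the Z-disc to integrins and dystroglycan at the membrane, showed mostly rises. Of 24 tested genes 13 rose, 2 fell and 9 missed the threshold (median log2 fold change 0.21), or 54.2% higher and 8.33% lower beside 20.3% and 18.9% of all tested genes. Dag1, or dystroglycan, rose from 20035, 19569 and 22562 to 60390, 64819 and 61914 normalised counts (1.59 ± 0.07, adjusted p = 5.7e-06 by limma). Lims2, or PINCH2, an adaptor of integrin-linked kinase, rose from 3278 ± 430 to 12152 ± 205 (SD, n = 3; 1.90 ± 0.09), and Tln1, or talin, rose too (0.45 ± 0.05). Vcl, or vinculin (-0.23 ± 0.05), and Pxn, or paxillin (-0.45 ± 0.12), fell. The vehicle libraries of Pxn stood in the order of the fibroblast marker medians and those of Vcl in the reverse order. The part of these markers was not tested. The count of higher members was 9 on library totals and 9 to 14 with each library left out in turn. The count of lower members was 6 on library totals, 4 with array weights and 0 to 5 with each library left out in turn.

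Transcripts known to respond to stretch, and stretch-activated channels, were mostly lower. Of 20 tested genes 16 fell, 2 rose and 2 missed the threshold (median log2 fold change -1.28). Lower members were thus 80% and higher ones 10%, against 18.9% and 20.3% of all tested genes. This list, like the others, was chosen with earlier results of these data known. It leaves out Ankrd1, which was listed with the paralogs and was not called. Atf3 fell from 3564, 5287 and 3565 to 184, 131 and 172 normalised counts, and Fos from 2272, 3778 and 2245 to 229, 272 and 220. For both, vehicle replicate 2 was the highest, as it was for Xirp2. Hbegf, a growth factor gene, fell from 3480 ± 408 to 844 ± 59.8 (SD, n = 3; -2.04 ± 0.09, adjusted p = 5.2e-06 by limma). Among the higher members was the skeletal actin gene Acta1 (0.46 ± 0.12), which was not called without ATRA replicate 1, 2 or 3. Piezo1 (-0.71 ± 0.17) and Piezo2 (-1.78 ± 0.34), which encode mechanically gated channels, and the natriuretic peptide gene Nppb (-0.49 ± 0.09) were lower, chosen after their values were seen.

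Regulators that act on Z-disc genes, namely serum response factor, YAP and calcineurin with their partners, went both ways. Of 30 tested genes 8 rose, 7 fell and 15 missed the threshold (median log2 fold change 0.09, or -0.02 with library size alone). These shares, 26.7% higher and 23.3% lower, were near the 20.3% and 18.9% of all tested genes. The coactivator gene Myocd rose from 3046 ± 536 to 6349 ± 109 normalised counts (SD, n = 3), or 1.08 ± 0.12 on the log2 scale (adjusted p = 0.00041 by limma), and the Hippo kinase gene Stk4 (0.65 ± 0.08) and Wwtr1, or TAZ (0.31 ± 0.05), rose. Mef2a fell from 5234, 5014 and 5377 to 3828, 3996 and 3942 normalised counts (-0.41 ± 0.05, adjusted p = 0.00058 by limma), and the calcineurin subunit gene Ppp3ca by 0.30 on the log2 scale. Nfatc1, a target of calcineurin, fell from 698, 454 and 318 to 116, 104 and 111 normalised counts (-2.07 ± 0.25). Its vehicle libraries stood in the order of the fibroblast marker medians, and the part of these markers was not tested. Srf itself was higher (0.41 ± 0.11, adjusted p = 0.017 by limma) and Mrtfa of the same list was lower (-0.31 ± 0.08, adjusted p = 0.016). Both were chosen after their values were seen. Mrtfb (-0.15 ± 0.06), Abra (-0.25 ± 0.13) and Yap1 (0.05 ± 0.04) were not called. Without ATRA replicate 1, 2 or 3 the higher members numbered 3, 4 and 4, and the lower members 5, 4 and 5.

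**Figure D5:**
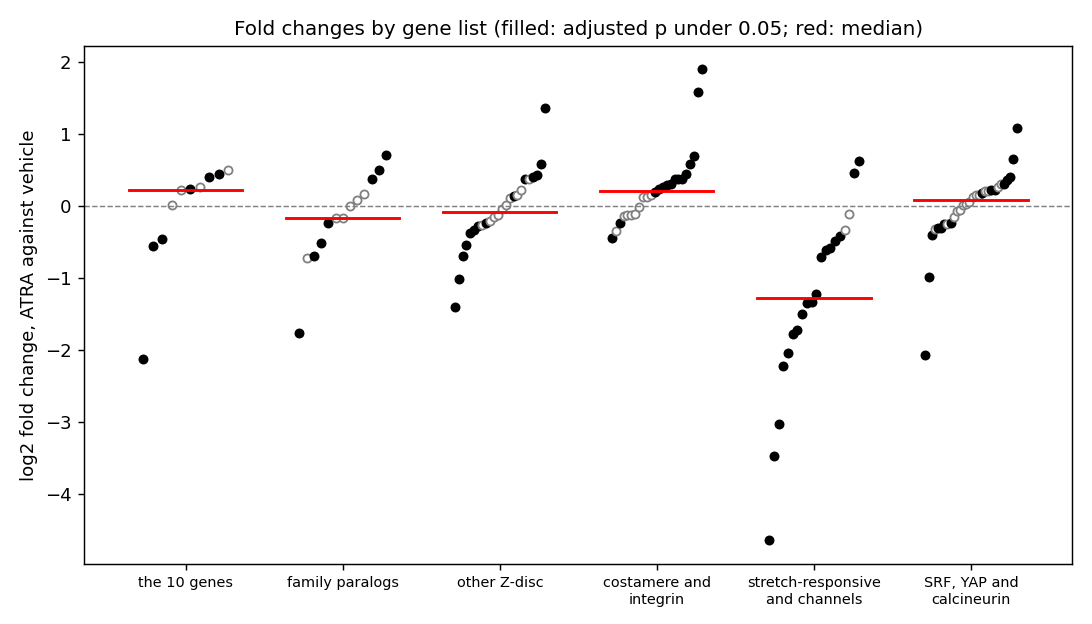
Log2 fold changes, ATRA against vehicle (vertical axis), of the 10 genes and of the 5 lists of related genes. Filled points passed an adjusted p under 0.05 and red lines are medians. The stretch-responsive list has its median at -1.28, while the medians of the other lists lie between -0.16 and 0.23.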

How the data were processed

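Poly(A) RNA of 6 libraries was measured. Upstream, STAR 2.7.3a, HTSeq 0.11.2, Trim Galore 0.6.4 and DESeq2 1.32.0 and the build mRatBN7.2 are named in the submitters' processing notes. Annotation release and strand setting: not given in the sources used here. Per the file headers, the deposited table holds a normalised count signal, in which the authors divided reads by a size factor per library, and FPKM by the authors. It also holds the authors' log2 fold change, its standard error and a test score, and their p-value and adjusted p-value. The values were whole multiples of each library's smallest value for 100% of genes (tolerance 1e-08), which gave back the reads. For ATRA replicate 2 that step was 1.011, close to 1.

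Groups were compared on log2(normalised count + 1) with limma 3.58.1, using its intensity trend, a scale that understates the change of low genes, for genes with at least 10 normalised counts in at least 3 libraries. Of 23096 genes 3108 had no symbol, and for 205 rows that repeated a symbol it was kept for the highest mean. Alternatives were pseudocounts of 0.5 and 5, no filter, a minimum of 50, leaving out each library, the replicate block, other scalings, array weights, edgeR 4.0.16 and DESeq2 1.42.0 on the recovered reads. On simulated counts for 13110 genes with 200 changed 2-fold, 84% were recovered and 6.67% of the calls were false, and in a separate simulation without changed genes 0 were called. Smaller changes, such as those of Ldb3 or Csrp3, were not simulated. Both groups had the same dispersion there, whereas the median coefficient of variation in the data was 9.92% in vehicle and 4.72% after ATRA. The 10 genes and the lists were chosen with earlier results of these data known. Named besides the 10 genes were, per list, the 3 called genes of smallest p in each direction, all tested paralogs and the 3 closest profiles. Of the genes these rules name, 2 are not reported here. No set test was run.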

Additional observations from a re-analysis of the deposited data

How the results depend on the processing

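Csrp3 and Xirp2 kept their direction and call in all 18 alternatives, and the number of lower genes among the 10 stayed between 2 and 4. The higher count, 3 in the report, was 0 to 5 with each library left out in turn and 0 with cardiomyocyte marker scaling, which was added after the data were seen. That scaling gave -0.13 for Actn2, -0.17 for Myoz2, -0.38 for Nexn and -0.16 for Pdlim5. Nexn, at -0.08 to 0.07 with each library left out in turn, was also negative without vehicle replicate 1 (-0.08), with library size alone (-0.09), upper-quartile factors (-0.01) and array weights (-0.02). Over all genes, 1715 to 3404 were higher and 1645 to 3161 lower with each library left out in turn, and 1764 and 3775 with library size alone. Without an ATRA library 1715 to 1761 were higher, and without a vehicle library 2151 to 3404, with equally many samples left in both. The cause of these shifts was not tested. The median of the paralogs was 0.00 under the stricter filter and -0.26 with library size alone, which left 1 of them higher, and the higher regulators then numbered 4. The costamere median was 0.11 with library size alone.

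Samples share only a replicate number: deviations from the group means correlated at 0.00, -0.10 and -0.01 for numbers 1, 2 and 3. With the number as a replicate block, 2302 genes were higher and 2135 lower, and of the 10 genes Pdlim5 was no longer called (adjusted p = 0.0506), leaving 2 higher and 3 lower. Among the 10 genes depth limits only Ankrd23, which the stricter filter removed. The weakly expressed paralogs Myoz1 and Pdlim4 were also removed by it.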
